A study of Mus musculus with 24 samples.

Results

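The m6A sites described here are those that the miCLIP lists of naive and of nerve-injured mouse dorsal root ganglia (DRG) have in common: the same chromosome, base and strand in both. There were 3832 of them among 29291 sites in either list. They made up 26.5% of the 14446 sites of the naive list (95% exact Clopper-Pearson interval 25.8 to 27.3%) and 20.5% of the 18677 sites of the list titled SNL (19.9 to 21.1%). Members were chosen by listing in both tables, which depends on reads and mutated reads, so their reads, mutated shares and contexts below are descriptions with no test. Intervals on reads and sites cover counting error only.

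The ganglia were lumbar (L4/5) DRG of C57BL/6 mice, which hold the cell bodies of the sensory neurons that project through the sciatic nerve. Each miCLIP list came from 1 wild-type library, titled naive or SNL, and the labels give the SNL library no day after the lesion. Every library carries the same treatment label, which allows either sham surgery or crush of the sciatic nerve, so whether the naive mice were sham-operated was not settled. RNA-seq gave 3 libraries each of wild type naive, wild type 1 day after the lesion (SNLD1), Mettl14cKO naive and Mettl14cKO SNLD1. The Mettl14cKO mice carry the genotype label Mettl14-/-, and the driver that removes the gene is not given in the labels. MeRIP-seq, which counts RNA pulled down with an m6A antibody (IP) beside input RNA, gave 3 IP and 2 input libraries per condition, all wild type.

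N6-methyladenosine (m6A) is a methyl mark on adenosines inside mRNA, written by a nuclear complex of METTL3 and METTL14 and bound by reader proteins that can change the stability or translation of the transcript. It is placed mainly where an adenosine stands before a C and behind a G or A, and it is known to be dense near stop codons and in long internal exons. In miCLIP the antibody is crosslinked to the RNA by ultraviolet light, and reverse transcription over the crosslink leaves mutations that place the mark at 1 base.

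The 5 bases around the methylated A, given in the lists, show which sequence settings recurred in both conditions. The 5 commonest contexts among the shared sites come first and the 2 rarest last, 5′ to 3′, with the listed A in a capital.
Context 1: ggAcc
Context 2: agAcc
Context 3: ggAct
Context 4: tgAcc
Context 5: ggAca
Context 17: taAct
Context 18: taAca
The first, ggAcc, stood at 806 shared sites (21.0%, interval 19.8 to 22.4%), against 15.1% of sites in the naive list alone and 14.5% of sites in the SNL list alone. The next 4 held 12.4%, 11.7%, 11.4% and 10.9% of shared sites. At the other end, taAct was found at 10 and taAca at 7.

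Longer flanks could be read where a site lay in the RefSeq promoter windows of GRCm38.p6, which run from 250 bases before to 50 bases after a gene's start. Of 444 listed sites there, all 444 had the listed 5 bases at the listed position and strand. Neighbouring sequence was read only for the 28 shared sites with 12 bases on each side inside a window, and some of these follow as examples. Among those shown, Fbxo2 site 1 and the Cnst site lie before the annotated start. Capitals mark the 5-base context.
Fbxo2 site 1, chr4:148160628-148160652, plus strand: ggcagctccaGGACTcgccacccgc
Fbxo2 site 2, chr4:148160664-148160688, plus strand: tcttctctctTGACAgcaccgcagc
Hspa12a, chr19:58860941-58860965, minus strand: ccagaggctcAGACCtagctcggga
Pou4f1, chr14:104467960-104467984, minus strand: cgggatcgcgGGACCtgcgcgcggg
Cnst, chr1:179546500-179546524, plus strand: gtgccgcgggAGACCcgagccggcg
Rbbp6, chr7:122970572-122970596, plus strand: tatggaccccTGACCccgcggggtc
Pou4f1 encodes a transcription factor that marks sensory neurons. Its site had 14 reads with 1 mutated in the naive list and 12 with 1 mutated in SNL. Hspa12a encodes a relative of the heat shock protein HSP70. There 3 of 18 reads were mutated in naive and 2 of 23 in SNL. Fbxo2 encodes an F-box protein that binds glycoproteins, and its site 2 had 22 reads with 1 mutated in each list. Cnst, which encodes consortin, a protein of connexin traffic, had 2 of 12 and 2 of 13 mutated reads at its site.

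A G before the A was commoner at shared sites than at sites of 1 list. It preceded the A at 89.3% of shared sites (88.3 to 90.3%), 81.4% of naive-only sites (80.7 to 82.2%) and 81.0% of SNL-only sites (80.3 to 81.6%). An A in that position made up the rest, 10.7% of shared and 18.6% of naive-only sites. A C as the last base was at 50.4%, 41.0% and 41.2%, so it too was commoner among shared sites. The setting ggAcn, where n is A, C or T, covered 43.6% of shared sites, 37.4% of naive-only and 36.5% of SNL-only sites. Taking 1 site per host gene, the one with most reads, ggAcn stood at 47.1% of 1612 sites.

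The mutated share also varied with the last base. Pooled over reads, it was 17.0% in naive and 15.2% in SNL where the last base was C. It was 13.9% and 12.3% for T, and 13.1% and 11.5% for A. The order C, T, A was the same in both lists. The naive intervals, which cover counting error only, were 16.4 to 17.6% for C, 13.2 to 14.6% for T and 12.4 to 13.9% for A. Listing itself depends on reads and mutated reads, so these shares are descriptions with no test. At the same number of mutated reads the share falls as reads rise, and reads were not held equal across last bases. The part of depth in this order was not tested.

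Shared sites were covered by more reads than sites of 1 list. The median was 6 reads in the naive list (quartiles 4 and 11, highest 47) and 8 in SNL (quartiles 4 and 13, highest 51). Sites of the naive list alone had a median of 3 reads and sites of the SNL list alone 4. Of sites with 2 reads, 10.3% of the naive list and 6.39% of the SNL list were in the other list too. With 20 or more reads these shares were 72.9% and 73.0%. They rose across each of the 5 read classes in both lists.

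**Figure D1:**
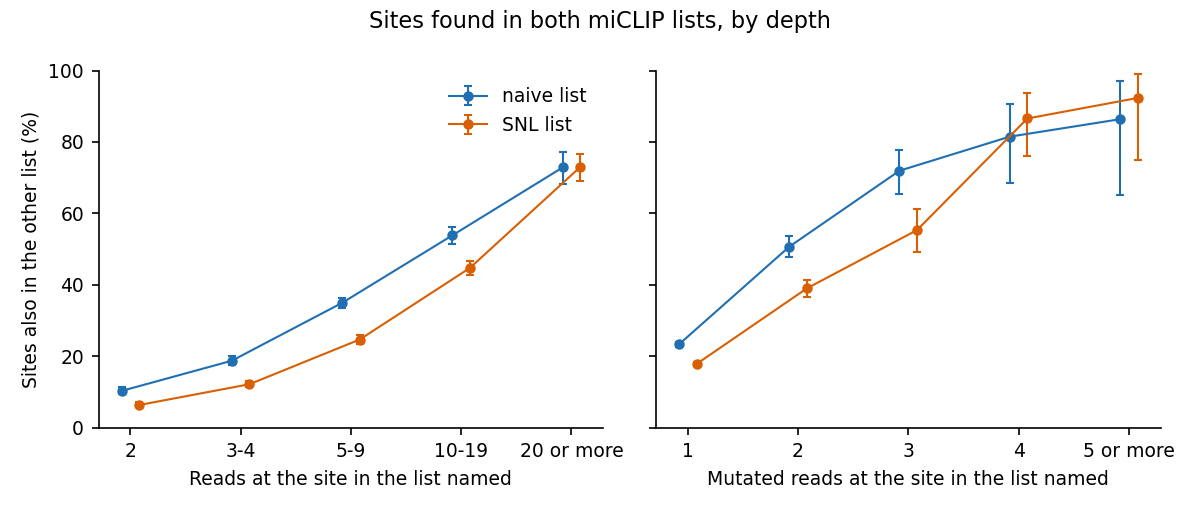
Percent of the sites of each list that are also in the other list (y axis), by reads (left) or mutated reads (right) at the site; points are shares and bars 95% exact binomial intervals. The share climbs from 10.3% of naive and 6.39% of SNL sites at 2 reads to 72.9% and 73.0% at 20 or more.

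Mutated reads ordered the lists in the same way. A site with 1 mutated read recurred in 23.3% (naive) and 17.9% (SNL) of cases. With 4 mutated reads it recurred in 81.5% and 86.6%, and with 5 or more in 86.4% and 92.3%, the last classes holding only 22 and 26 sites. Among shared sites themselves, 3040 (79.3%) had a single mutated read in naive and 2994 (78.1%) in SNL, and 2514 (65.6%) had 1 in each list. At those sites the mutated share is 1 divided by the reads and carries no more than the read number.

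That bound shapes the shares. Their median was 20% in naive and 16.7% in SNL, and the pooled share, over 32569 and 37279 reads, was 15.2% (14.8 to 15.6%) and 13.5% (13.1 to 13.8%). Both lists stop at 50%, and 480 shared sites in naive and 346 in SNL sat at that upper edge. The lowest share was 2.17% in naive and 1.96% in SNL. With at least 20 reads in both lists, 240 sites remained, with medians of 4.76% and 5.00%.

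Set side by side, the share was higher in naive at 2023 sites, higher in SNL at 1291 and equal at 518, with a median difference of -1.11 percentage points (SNL minus naive). The exact intervals of the 2 lists overlapped at 3832 of 3832 sites. Sites with a single mutated read in each list leave little room for anything else, and overlap of intervals does not show that shares were equal. Across sites, log2 reads correlated between the lists at r = 0.81 and shares at r = 0.58 (n = 3832). These are descriptions, since the points share transcripts, depth and, at most sites, a single mutated read. The shares correlated at r = 0.35 over the 240 sites with 20 or more reads in both lists and at r = 0.80 over the 70 sites with 3 or more mutated reads in both. That second threshold itself removes low shares at low depth.

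**Figure D2:**
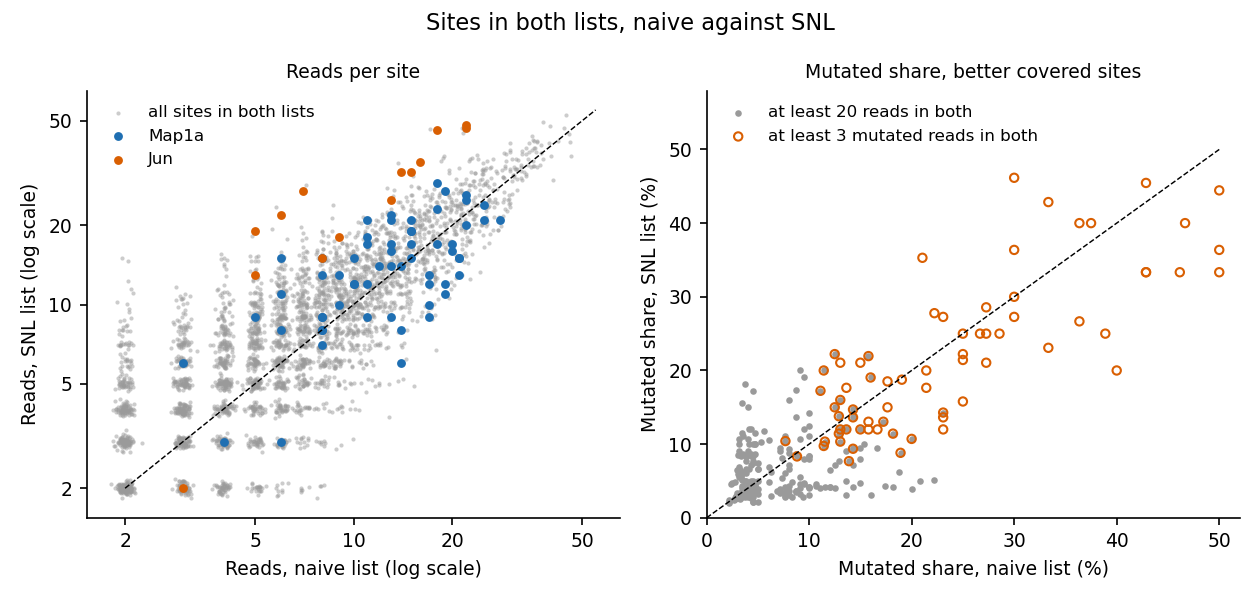
Left, reads per shared site in the naive (x) and SNL (y) lists on log scales, slightly jittered, with the sites of Map1a and Jun in colour; right, mutated shares (%) of the 240 sites with at least 20 reads in both lists and of the 70 with at least 3 mutated reads in both. Dashed lines mark equality, and 13 of 14 Jun sites lie above it on the left.

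Repeated mutation in 1 list went with repeated mutation in the other. Of sites with 1 mutated naive read, 3.39% had 3 or more in SNL (2.77 to 4.09%, n = 3040). With 2 the share was 10.4% (n = 570), and with 3 or more 31.5% (25.5 to 38.1%, n = 222). Depth moved with it: the median SNL reads of these classes were 7, 10 and 16, and its part in the difference was not tested. The 70 sites with 3 or more mutated reads in both lists lay in 60 genes. A G preceded the A at 69 of them, and ggAcc alone stood at 26 (37.1%, interval 25.9 to 49.5%).

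The best-mutated sites belonged to neuronal, glial and general genes. Ccdc92, a coiled-coil protein gene, had 6 of 38 reads mutated in naive (15.8%, interval 6.02 to 31.3%) and 9 of 41 in SNL (22.0%, 10.6 to 37.6%) at chr5:124835532. Flot2, which encodes the membrane raft protein flotillin-2, had 6 of 13 and 5 of 15 at chr11:78038033. S100b, a calcium-binding protein gene of glia, had 4 of 35 and 9 of 45 at chr10:76260033. Pcsk1n, which encodes an inhibitor of prohormone convertase, had 7 of 15 and 4 of 10 at chrX:7922292. In all 4 the intervals of the lists overlapped.

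The sites with most reads mostly carried the smallest shares. Tubb2a, a beta-tubulin gene, had 45 naive and 51 SNL reads at chr13:34075423, with 1 mutated in each. Tubb3, the neuronal beta-tubulin gene, had 45 and 48 reads at chr8:123420712, again with 1 mutated in each. Nefh, the heavy neurofilament gene, had 46 and 41 reads with 1 mutated in each at chr11:4941213. Apoe, a lipid carrier gene of satellite glia, was the exception among the 6 best-covered sites in naive only, with 5 of 47 reads mutated at chr7:19697021. In SNL it had 2 of 44, as did Tppp3 at chr8:105468611, and Tubb3 had 2 of 42 at chr8:123420670.

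Among sites with 20 or more reads in both lists, Sncg and Nefh each had 1 site among the 6 with the widest difference in share in either direction. The other genes of those sites appeared in 1 direction. In Sncg, the gene of gamma-synuclein, chr14:34370512 had 8 of 36 reads mutated in naive and 2 of 39 in SNL. The base chr14:34370495, 17 bases away on the same strand, had 1 of 29 and 5 of 32. Nefh likewise had 4 of 20 and 1 of 26 at chr11:4945142 but 1 of 25 and 3 of 20 at chr11:4943872. Ngfr, the low-affinity neurotrophin receptor gene, had 1 of 27 and 4 of 22 at chr11:95570437, higher in SNL. Each of these pairs of intervals overlapped.

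Shared sites often lay close together, though less often than the sites of a whole list, which is denser. Within 100 bases on the same strand, 31.3% of shared sites had another shared site (29.8 to 32.8%). Within the whole naive list this was 38.4% of sites and within the SNL list 39.7%. The shared sites formed 498 runs of 2 or more at gaps of up to 100 bases, holding 1198 sites, and 53 of those runs had 4 or more. Near misses were few: 105 naive-only sites (0.989%) had an SNL site within 5 bases on the same strand. Of these, 40 lay within 5 bases of a site in both lists, so that neighbour was already matched exactly.

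The longest run was in Tubb3, with 8 sites over 331 bases (chr8:123420670-123421000, plus strand). Every site that either list held there was in both, 8 in naive and 8 in SNL. Plec, the gene of the cytoskeletal linker plectin, had 7 over 375 bases (chr15:76175551-76175925, minus strand), Jun had 6 over 114 bases (chr4:95050200-95050313, minus strand) and Hras, a small GTPase gene, 6 over 51 bases (chr7:141191035-141191085, minus strand). In the Hras run reads were even, 22 to 32 in naive and 24 to 36 in SNL, while in the Jun run they were 14 to 22 and 32 to 48. The Jun run reads, in transcript order, as follows, with the listed A in a capital, shown because neighbouring bases a few apart were listed in both conditions.
Jun 95050313: taAca
Jun 95050264: gaAca
Jun 95050260: agAct
Jun 95050217: agAca
Jun 95050205: gaAct
Jun 95050200: tgAct
Five-base contexts with A before the methylated A stood at 3 of these 6, and 1 read was mutated at each site of the run in naive.

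Of the shared sites, 3793 (99%) fell in the spans of 1612 genes, 1600 of them protein-coding. Most genes held few: 935 had 1 shared site and 276 had 2, while 39 genes with 10 or more held 650 sites (17.0%). Another 1778 genes had sites in each list but none in common, led by Tro, the gene of trophinin, with 13 naive and 14 SNL sites. Along genes with a given strand (2944 sites), 31.7% of shared sites lay in the last 10% of the span and 16.9% in the first 10%. For naive-only sites these were 35.6% and 13.3%. Spans include introns, and exon annotation was not used here, so UTR, coding and intronic sites were not told apart. For 310 host genes, Plec, Akap12, Mbp, Nefh and Nrg1 among them, the gene's strand was not given and the span alone placed the site.

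The 10 genes with most shared sites held 292, or 7.62%. Map1a and Map1b, which encode large proteins that bind axonal microtubules, had 60 and 36. Plec had 50. Spock2 (a secreted proteoglycan), Nfe2l1 (a transcription factor of proteasome genes), Ngfr and Phf24 (a PHD finger protein) had 23 each. Akap12, a scaffold of protein kinase A, had 20, and Ywhag, the gene of 14-3-3 gamma, and Mbp, the myelin basic protein gene, 17 each. In Map1a (chr2:121289590-121310832) the shared sites were 56.6% of its 106 naive and 57.1% of its 105 SNL sites. Their reads ran from 3 to 29, summing to 828 in naive and 871 in SNL, and the pooled mutated share was 10.6% (8.61 to 12.9%) and 10.1% (8.18 to 12.3%).

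The sites were not spread over the spans. In Map1a they lay from 9015 to 19706 bases after the annotated start of a 21243-base span. In Map1b, whose span is 95139 bases, the median site was 83675 bases after the start. In Ngfr the median was at 16644 of 18881 bases, and Jun, with a span of 3187 bases, had its 14 sites from 123 to 2354 bases after the start.

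**Figure D3:**
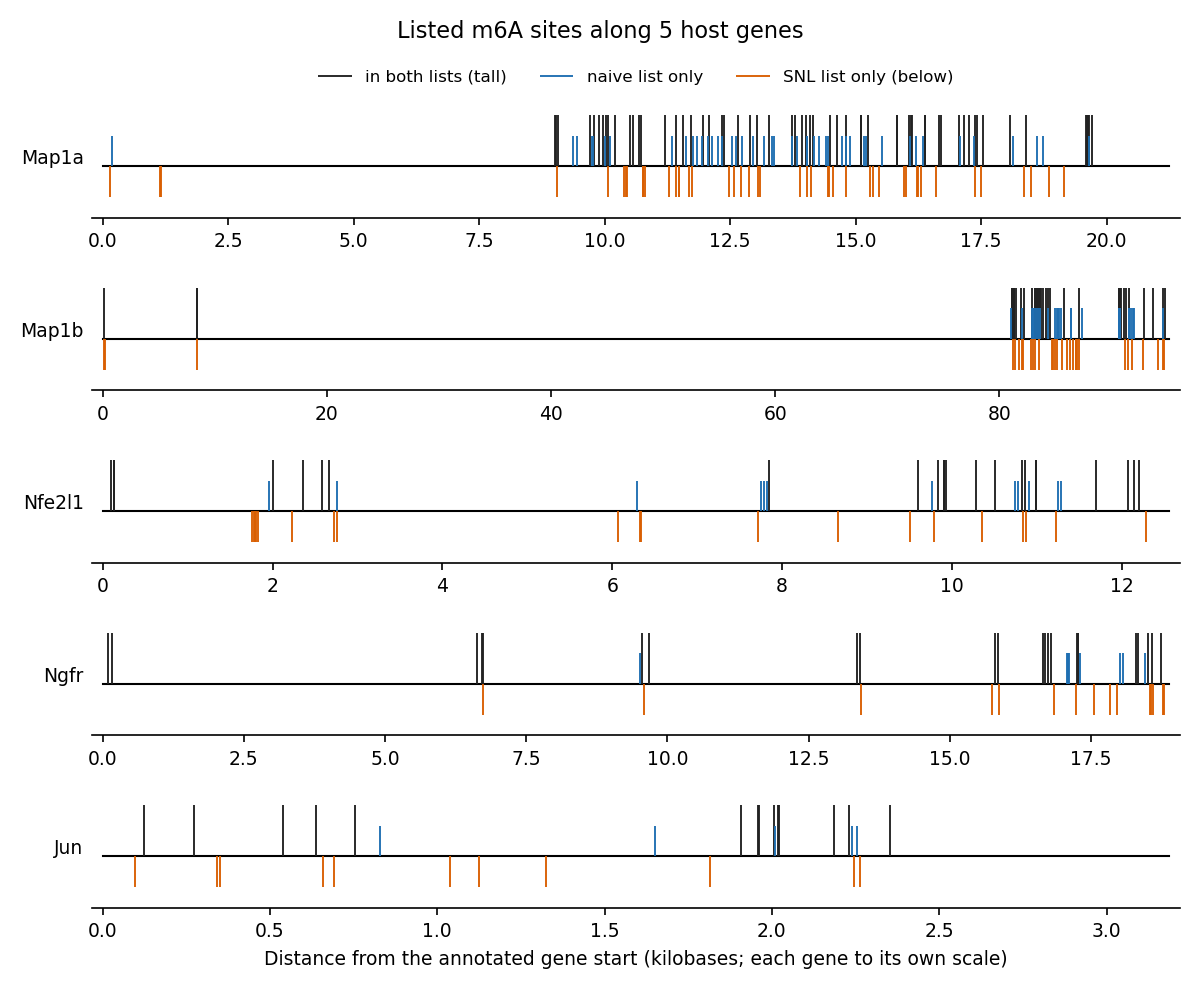
Listed m6A sites along Map1a, Map1b, Nfe2l1, Ngfr and Jun, by distance from the annotated gene start in kilobases, each gene to its own scale; tall black lines are sites in both lists, blue lines naive only, orange lines (below) SNL only. The 60 shared Map1a sites begin 9015 bases after the start, and most Map1b sites stand near the end of its span.

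The overlap differed between genes. Among 220 genes with 10 or more sites in each list, the sites in both made up a median of 23.7% of those in either (quartiles 15.4 and 33.3%). Hras was highest, with 10 of 13 sites in both (76.9%), then Tubb3 with 15 of 22 (68.2%) and Ywhag with 17 of 28 (60.7%). Reads at their shared sites were high, with naive medians of 24.5, 23 and 24. In 4 of the 220, Tro, Clstn1, Ctif and Sh3pxd2a, no site was shared. These genes were chosen after their values were seen.

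By function, structural genes of the axon held the most. Of 36 neuronal cytoskeleton genes 27 had a shared site, 257 sites in all, where 7.31% of all 21900 protein-coding genes did. After Map1a, Map1b and Tubb3 came Map6, a microtubule stabiliser, with 15, and Nefh and the kinesin gene Kif5a with 13 each. Of 15 DRG neuron markers 11 had one (85 sites), among them Nefm with 12, Avil, a sensory neuron actin-binding protein gene, with 11, and Scn10a, the gene of the nociceptor sodium channel Nav1.8, with 9. Of 38 sensory channel and receptor genes 16 had one, with 5 in the potassium channel gene Kcna1 and 3 in the neurotrophin receptor gene Ntrk3.

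Glial and other cell markers were present too. Of 12 Schwann cell markers 6 had a shared site (36 sites), led by Mbp with 17 and Prx with 9, both genes of the myelin sheath. Of 12 satellite glia markers 4 had one, with 7 in Apoe. The counts were 2 of 14 for macrophage markers, 1 of 12 for endothelial and mural markers and 1 of 8 for fibroblast markers. Chromatin regulators had 11 of 50, with 4 sites in the remodeller gene Chd4, and axon guidance genes 8 of 46, with 8 sites in Rgmb, a BMP co-receptor gene. The list sizes say nothing of expression, and listing needs reads.

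Regeneration-associated genes were represented too. Of 39 such genes 11 had a shared site: Tubb3 with 15, Jun with 14, the growth cone gene Basp1 with 5, Stmn2, Gadd45a and Klf7 with 2 each, and Gap43, Flrt3, Socs3, Klf6 and L1cam with 1. In the wild-type RNA-seq below, Jun, Gadd45a, Flrt3, Socs3 and Klf6 were called higher after the lesion and the others of the 11 were not called. The log2 change was 0.08 for Tubb3, -0.03 for Basp1 and 0.20 for Stmn2. Of 22 immediate early genes 4 did, Jun, Jund with 8, Junb and Egr2. Atf3 and Sox11, injury-induced transcription factors, had none. The m6A machinery had 3 of 23, Rbm15b with 3, Eif3a with 2 and Hnrnpc with 1. Ribosomal protein genes had 3 of 85 and Zfp zinc finger genes 12 of 367.

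Reads at the Jun sites differed between the lists more than at most others. Jun encodes the AP-1 subunit c-Jun. Its 14 shared sites had 3 to 22 reads in naive and 2 to 48 in SNL, more in SNL at 13 of the 14, with summed reads of 163 and 381. Over all shared sites, reads were higher in SNL at 2124 (55.4%) and the sums stood at a ratio of 1.14. The Jun mutated reads were near equal, 17 and 19, so its pooled mutated share was 10.4% in naive (6.19 to 16.2%) and 4.99% in SNL (3.03 to 7.68%). Every listed site has at least 1 mutated read, so the 14 sites hold at least 14 in each list whatever their methylation. Near that floor the share falls as reads rise, and the part of reads in this difference was not tested. Gadd45a, a DNA damage and growth arrest gene, had 2 and 2 reads at its sites in naive and 14 and 15 in SNL.

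Across 300 host genes with 50 or more summed reads, the log2 ratio of reads, SNL over naive, had a median of 0.20 (quartiles 0.01 and 0.42). Vgf, a neuropeptide precursor gene, was highest with 17 and 56 reads (log2 1.72), followed by Fam53c (15 and 39), with Jun next (log2 1.22). For the 287 of these also tested in RNA-seq, this ratio correlated with the wild-type RNA-seq change across genes at r = 0.51 and rho = 0.38, and at r = 0.49 without Jun. Genes are not independent replicates and no p is given. Read number at a site is no measure of methylation on its own. These genes too were chosen after their values were seen.

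RNA-seq libraries held 5707837 to 12639160 counts and MeRIP-seq libraries 846785 to 19653733. All 15 DRG neuron markers had reads in every library, and all 12 Schwann markers were seen in every RNA-seq library. In the knockout check, Mettl14 stood at 23.3, 22.9 and 24.1 CPM (counts scaled to a common library size) in wild-type naive libraries and 14.2, 18.9 and 15 in Mettl14cKO naive ones. After the lesion it was 20.1, 20.7 and 19.4 against 14.2, 16.9 and 15.6. The genotypes did not overlap, and neither difference passed (log2 -0.55, SE 0.17, adjusted p = 0.316, and log2 -0.36, SE 0.17, adjusted p = 0.345, edgeR quasi-likelihood test). Of the 1612 host genes 1519 passed the filter on low counts in RNA-seq and 1595 in MeRIP-seq, against 13291 of 24421 and 14705 of 24411 of all genes, and members that failed are in no gene count below.

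MeRIP-seq, an antibody measurement on other libraries, asked whether host genes were over-represented in the pulldown. No gene passed in either direction in naive or SNLD1 (0% of 14705 called higher and 0% lower in each), so no host gene was called. The median SE of a host gene's log2 was 0.94 in each condition, and changes placed in simulated data with this spread were not called either, so the count of 0 does not show that host genes were not enriched. At an unadjusted p under 0.05, 81 of 1595 host genes (5.08%) were higher and 34 lower in naive. Of all 14705 genes, 357 (2.43%) were higher and 558 lower. In SNLD1 the host counts were 46 (2.88%) and 26 of 1595, beside 242 (1.65%) and 366 of 14705. DESeq2 called 1 gene higher and 3 lower in naive, of which host genes were 1 and 1, and none in SNLD1.

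The medians of host genes nonetheless lay above those of all genes. In naive libraries the median log2 of IP over input was 0.53 for host genes and 0.07 for all, with 65.6% and 51.8% of genes above 0. By number of shared sites it was 0.37 (1 site), 0.54 (2), 0.80 (3 to 4), 0.83 (5 to 9) and 0.98 (10 or more, 38 genes), and it was -0.14 for genes with no listed site. In SNLD1 the same classes had 0.37, 0.49, 0.62, 0.64 and 0.81, all genes 0.10 and genes with no site -0.07.

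The SNLD1 medians rested on 1 input library. Without SNLD1 input library 1, which held 927807 counts, the host median fell to 0.05, below the 0.12 of all genes, and the class of 10 or more sites to 0.18. Without SNLD1 input library 2 the host median was 1.36 beside 0.41, without IP library 1 it was 0.17 beside -0.14, and over all SNLD1 fits that left out 1 library it ran from 0.05 to 1.36. In naive the range was 0.29 (without IP library 1) to 0.85 (without input library 2), above the median of all genes in each of the 5 fits. The rise over the naive classes did not hold in each. Without naive IP library 2, which held 846785 counts, the median was 0.91 with 5 to 9 sites and 0.62 with 10 or more. In the other naive fits the class of 10 or more stayed above that of 5 to 9. Input level moved with the classes as well: the median naive input CPM was 9.57 with no site, 48.6 for host genes and 105 with 10 or more sites, and its part in the medians was not tested.

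**Figure D4:**
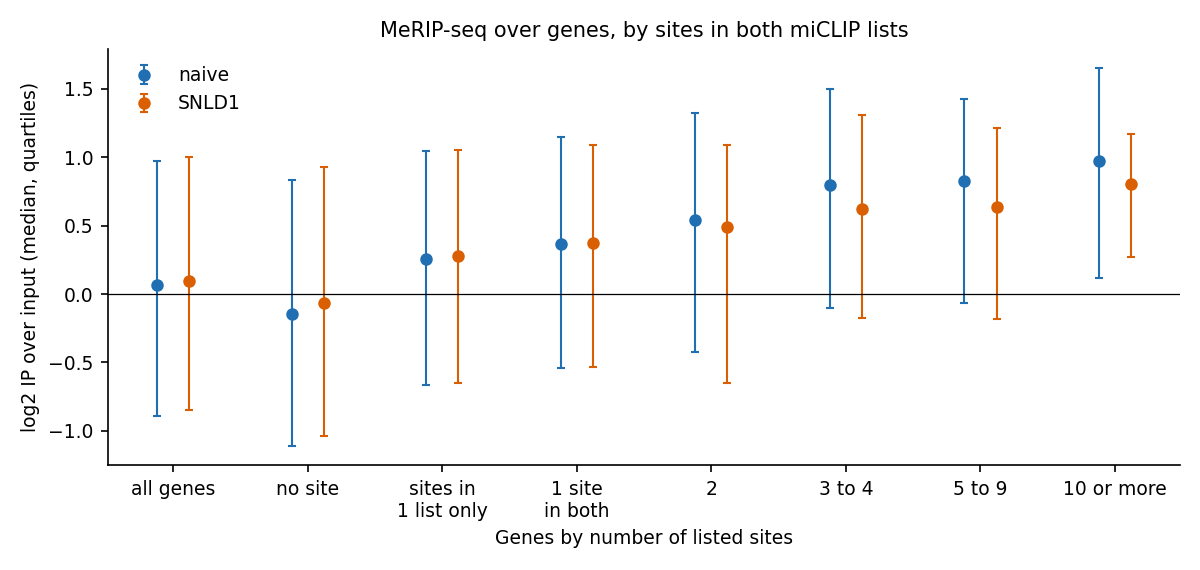
Log2 IP over input of genes in MeRIP-seq (y axis), by number of m6A sites in both miCLIP lists (x axis), for naive and SNLD1 libraries; points are medians and bars run from the lower to the upper quartile. Medians run from -0.14 (no site) to 0.98 (10 or more) in naive and from -0.07 to 0.81 in SNLD1, with wide overlap between classes.

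Single genes show the spread. Ngfr, with 23 shared sites, stood at 215, 37.7 and 93.6 CPM in the naive IP libraries and at 9.40 and 31.1 in the inputs, without overlap (log2 2.52, SE 1.13, adjusted p = 0.710). In SNLD1 its IP values were 241, 24.9 and 107 and its inputs 7.13 and 39.9, which overlap (log2 2.36, SE 1.12, adjusted p = 0.791). Map1a had 456, 251 and 210 in naive IP and 68.6 and 164 in input (log2 1.39, SE 0.94, adjusted p = 0.717). In SNLD1 it had 499, 246 and 223 beside 36.9 and 285 (log2 0.99, SE 0.92, adjusted p = 0.793). The first IP library was highest for both genes in each condition. Of the 10 genes with most shared sites 8 had a log2 above 0 in naive and 9 in SNLD1. Over all genes tested, 51.8% were above 0 in naive and 52.7% in SNLD1. The SNLD1 count is subject to the same limit as the SNLD1 medians, which rested on 1 input library.

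Injury changed few host genes in wild-type ganglia. RNA-seq asked which of their transcripts differed 1 day after the lesion: 14 of 1519 rose, where 0.948% of all genes tested did, and 2 fell (all genes 0.0752%). Both shares of host genes were near the background. Their median log2 change was -0.05, and that of all genes -0.01. In bulk ganglia, fewer cells of a type and less RNA per cell cannot be told apart. Whether replicates came from different mice is not stated, so the p-values speak of the variation among these libraries, which may be technical. None of the 10 genes with most sites was called, their log2 changes lying between -0.38 (Ngfr) and 0.20 (Akap12).

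Flrt3, a membrane protein gene of axon guidance, had 78.6, 114 and 85.5 CPM in naive and 760, 830 and 1095 in SNLD1 (log2 3.27, SE 0.19, adjusted p = 1.06e-08). Gadd45a had 7.16, 4.23 and 8.44 in naive and 65.3, 37.3 and 73.9 in SNLD1 (log2 3.12, SE 0.31, adjusted p = 9.71e-06). All injured libraries were above all naive ones for both genes. Csf1, a growth factor gene for macrophages and microglia, had 3.68, 1.77 and 4.26 and then 11.2, 6.29 and 15.4 (log2 1.71, SE 0.35, adjusted p = 0.0173). Dclk3, a kinase gene, went from 18.7, 22.0 and 26.1 to 68.7, 78.9 and 80.0 (log2 1.77, SE 0.19, adjusted p = 2.36e-05). Groups were apart for these too. Lack of overlap was a condition for naming a called host gene here and below, so it adds no support to the calls. These p-values, and those below, are from edgeR's quasi-likelihood test.

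Jun and Klf6, both transcription factors, rose as well. Jun had 7.54, 3.95 and 8.36 CPM in naive and 20.7, 12.4 and 17.1 in SNLD1 (log2 1.3, SE 0.28, adjusted p = 0.0298). Klf6 had 155, 135 and 114 and then 264, 243 and 400 (log2 1.17, SE 0.18, adjusted p = 0.00182). Shox2, a homeobox gene, fell from 21.7, 12.3 and 20.4 to 8.89, 9.95 and 8.66 (log2 -0.99, SE 0.23, adjusted p = 0.0431). Lrrn1, a leucine-rich repeat membrane protein gene, fell from 151, 148 and 165 to 104, 111 and 98.2 (log2 -0.57, SE 0.13, adjusted p = 0.0491). In none of these 4 did the groups overlap, by the same condition for naming. Flrt3, Gadd45a, Dclk3 and Klf6 passed in all 6 fits that left out 1 library (highest adjusted p = 0.0217, Klf6 without naive replicate 3).

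The others depended on the libraries used. Jun passed in 1 of the 6, without SNLD1 replicate 2, and its adjusted p reached 0.149 without SNLD1 replicate 1. Csf1 passed in 2, failing without SNLD1 replicate 1 or 3 or naive replicate 1 or 2 (highest adjusted p = 0.166). Shox2 passed in 1, without naive replicate 2, and Lrrn1 in none (highest adjusted p = 0.239 and 0.250). Jun, Csf1, Shox2 and Lrrn1 also failed when only the compared libraries were fitted (adjusted p = 0.0683, 0.0503, 0.117 and 0.135).

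Few host genes differed between libraries labelled Mettl14cKO and wild type in naive ganglia, where Mettl14 RNA itself did not pass the test. Here 3 of 1519 rose, beside 0.173% of all genes, and 2 fell, beside 0.113%. After the lesion 8 rose, beside 0.948%, and 9 fell, beside 0.512%. In this fit the shares of host genes called were near or below those backgrounds. The comparisons use separate libraries but 1 shared estimate of spread. All 5 host genes called in naive were called in SNLD1 in the same direction, 100% of the first list and 29.4% of the 17 of the second. They were Nrg1, Rnf146 and Trmt12, higher, and Prune2 and Nefh, lower. The same overlap over all called genes is not given here, so the 100% cannot be read as a trait of host genes. The median log2 difference of host genes was -0.05 in naive and -0.04 in SNLD1, beside 0.00 for all genes in each. The change of the genotype difference between conditions was itself tested, and no gene of 13291 was called (58 host genes at an unadjusted p under 0.05, of 492 in all).

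Prune2 and Nefh are both neuronal genes with many shared sites. Prune2, which encodes a large protein with a BCH domain, held 17, with 158 summed reads in naive and 207 in SNL. Its levels were 644, 554 and 654 CPM in wild-type naive and 278, 343 and 377 in Mettl14cKO naive (log2 -0.89, SE 0.15, adjusted p = 0.0110). After the lesion it stood at 499, 546 and 559 in wild type and 266, 259 and 306 in Mettl14cKO (log2 -0.95, SE 0.15, adjusted p = 0.00388). Every Mettl14cKO library was below every wild-type library of its condition.

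Nefh, with 13 shared sites, followed the same pattern. It had 753, 580 and 746 CPM against 417, 402 and 419 in naive (log2 -0.75, SE 0.14, adjusted p = 0.0305). In SNLD1 it had 562, 553 and 643 against 326, 305 and 300 (log2 -0.92, SE 0.14, adjusted p = 0.00360). Again the genotypes did not overlap, which was a condition for naming both genes. In SNLD1 both genes passed in all 6 fits that left out 1 library. In naive Prune2 passed in 3, failing without Mettl14cKO replicate 2 or wild-type replicate 1 or 3 (highest adjusted p = 0.0696), and Nefh passed in 1, without wild-type replicate 2 (highest adjusted p = 0.165). They were the only genes called among the 36 tested with 10 or more shared sites, or 5.56% called lower in each condition. Of all genes 0.113% were called lower in naive and 0.512% in SNLD1, but the 5.56% rests on these 2 genes. The median log2 of the 36 was -0.15 in naive and -0.12 in SNLD1.

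Nrg1 and Rnf146 went the other way with fewer sites. Nrg1, the gene of neuregulin-1, an axonal growth factor for Schwann cells, held 1 shared site. It had 33.4, 23.0 and 34.5 CPM in wild-type naive and 58, 112 and 87.2 in Mettl14cKO naive (log2 1.49, SE 0.22, adjusted p = 0.00359). In SNLD1 these were 24.7, 19.8 and 27.2 and 74.6, 71.9 and 73.5 (log2 1.62, SE 0.22, adjusted p = 0.00145). The groups were apart, by the condition for naming, and the call held in each of the 12 fits that left out 1 library. Rnf146, a ubiquitin ligase gene with 2 shared sites, had 112, 101 and 94.8 against 180, 211 and 204 in naive (log2 0.95, SE 0.16, adjusted p = 0.0110), and 106, 112 and 99.9 against 196, 154 and 232 in SNLD1 (log2 0.87, SE 0.16, adjusted p = 0.0111). It passed in 1 of the 6 naive fits, without Mettl14cKO replicate 1, and in 3 of the 6 SNLD1 fits, failing without Mettl14cKO replicate 1 or wild-type replicate 1 or 3. Trmt12, a tRNA modification gene, passed in none of the 6 naive fits (highest adjusted p = 0.258).

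**Figure D5:**
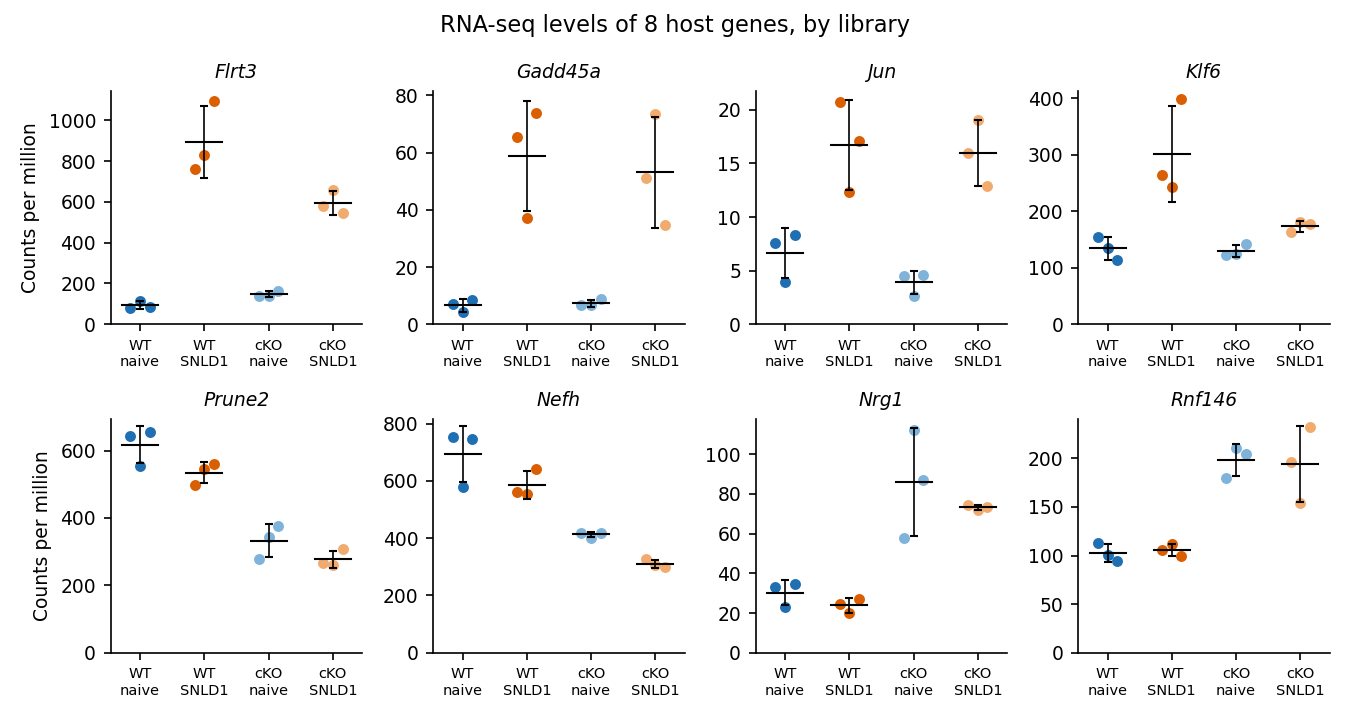
RNA-seq levels in CPM of 8 host genes by library; WT is wild type, cKO Mettl14cKO, dots are libraries, horizontal lines means and bars 1 SD (n = 3). Flrt3, Gadd45a, Jun and Klf6 are higher in every injured wild-type library than in every naive one. Prune2 and Nefh are lower, and Nrg1 and Rnf146 higher, in every Mettl14cKO library of a condition than in its wild-type libraries. Such lack of overlap was a condition for naming these genes.

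In SNLD1 further host genes were called, of which 8 follow. Scn10a, with 9 shared sites, was lower in Mettl14cKO (means of 71 and 111 CPM over 3 libraries each, log2 -0.64, SE 0.16, adjusted p = 0.0479). Cacna2d1, a calcium channel subunit gene with 1 site, was lower too (169 against 280, log2 -0.73, SE 0.17, adjusted p = 0.0332), as was Togaram1, a gene of ciliary microtubules (32.4 against 50.7, log2 -0.65, SE 0.15, adjusted p = 0.0442). Klf6 was at 174 against 302 (log2 -0.80, SE 0.18, adjusted p = 0.0321). The injury comparison and this one share the wild-type SNLD1 libraries, so the Klf6 values of the 2 are not independent. Apod, a lipocalin gene, was higher (4261 against 1718, log2 1.31, SE 0.25, adjusted p = 0.0143), as were Actr1a, a dynactin subunit gene (179 against 105, log2 0.76, SE 0.15, adjusted p = 0.0183), Pdlim2 (70.8 against 41.5, log2 0.77, SE 0.18, adjusted p = 0.0393) and Sap30bp (68.4 against 41.9, log2 0.71, SE 0.15, adjusted p = 0.0226). That the groups did not overlap was a condition for naming these 8. Each of the 8 lost its call in 4 or 5 of the 6 fits that left out 1 library, with highest adjusted p-values from 0.0785 (Apod, without wild-type replicate 3) to 0.231 (Scn10a, without Mettl14cKO replicate 1). Leaving out Mettl14cKO replicate 1 or wild-type replicate 3 ended the call of each of the 8, and each other library that of some.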

How the data were processed

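The authors' miCLIP lists, deposited as 2 BED tables, give per site a position, strand, 5-base context, reads and mutated reads. The value of unit other that the authors deposited in column 5 equalled mutated reads divided by reads at every site. For RNA-seq and for MeRIP-seq the authors deposited raw counts per gene symbol. The submitters' processing notes name Trimmomatic, STAR, DESeq2 and mm10, without versions, and for the site caller and the read counter the sources used here give no name. A caller's own limits on reads and mutations set which sites could be shared.

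Positions were read as 1-based mm10 bases and placed in gene spans of RefSeq's GRCm38.p6, taking protein-coding genes on the site's strand, then genes whose strand the tables used here do not give (831 sites, 310 genes). The plan had asked for the same strand. Of RNA-seq symbols 23204 matched by symbol, 1096 by synonym and 121 not at all. Counts were fitted with edgeR 4.0.16 (R 4.3.3; filterByExpr, TMM, quasi-likelihood), all 12 RNA-seq libraries as 4 groups and the 10 of MeRIP-seq likewise as 4. Benjamini-Hochberg adjustment ran over all genes tested, with calls below 0.05. CPM uses TMM-adjusted totals. A log2 of IP over input is relative to the other genes of the library. Site work used Python 3.11.15, numpy 2.4.6, pandas 2.3.3, scipy 1.17.1 and matplotlib 3.10.9, and the scripts were tested on simulated data. DESeq2 1.42.0 was an alternative, beside other scaling, no filter, a replicate block, only the compared libraries and leaving out each library. For sites the alternatives were matching within 5 bases, at least 20 reads or 3 mutated reads in both lists, 1 site per gene, windows of 50 and 200 bases and either strand.

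Members and lists were chosen with earlier results of these data known. Named were the 10 genes with most shared sites, the 6 sites leading in reads, in mutated share and in difference each way (with 20 reads or more), the 4 longest runs, up to 5 members per list by number of sites, up to 6 called host genes per direction (5 CPM or more, groups apart), and Mettl14, Atf3, Sox11, Jun, Tet3 and Gadd45a. Others were chosen after their values were seen. Some items are not reported here.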

Additional observations from a re-analysis of the deposited data

How the results depend on the processing

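Sites: matching within 5 bases gave 3937 shared sites, some of them beside a site already matched exactly. At least 20 reads in both lists left 240 and at least 3 mutated reads in both 70 (60 host genes). Their median shares were 4.76% and 5.00%, and 21.2% and 20%. The ggAcn share was 47.1% with 1 site per gene and 52.9% at 3 mutated reads, and the share of sites with a neighbour 21.6% at 50 bases and 40.6% at 200. Host genes numbered 1620 over either strand and, in an alternative chosen after seeing the data, 1302 where the strand was given. Counts of called host genes depended on the fit; the cause was not tested. Injury gave 14 higher and 2 lower, but 7 and 0 with only the compared libraries, 21 higher with DESeq2, 19 higher without a filter, 1 lower with DESeq2 size factors, and 6 to 16 and 0 to 1 leaving out a library. Mettl14cKO in naive gave 3 and 2, but 5 and 5 with DESeq2, 9 and 10 without a filter, 1 lower with only the compared libraries, and 1 to 3 and 0 to 2 leaving out a library. In SNLD1 it gave 8 and 9, but 33 lower with DESeq2, 17 and 27 without a filter, 5 and 3 with only the compared libraries, and 1 to 7 and 2 to 10 leaving out a library. Over all 13291 genes DESeq2 called 190 higher for injury, 45 higher and 32 lower for Mettl14cKO in naive, and 187 lower in SNLD1. The 33 of 1519 host genes were a larger share than that 187 of 13291. Counts over all genes under the other settings are not given here. IP over input gave 1 higher and 1 lower with DESeq2 in naive and 1 lower without a filter. Replicate numbers were not taken as pairs (correlations of same-numbered deviations -0.29 to 0.57, not all over 0.1), which does not show that the samples were unpaired. With the replicate block the lower counts were 7 and 1 for IP over input in naive and SNLD1, and 5 and 19 for Mettl14cKO in naive and SNLD1. Of 377 single-gene values under alternatives 284 kept their side of the threshold, 93 lost it and none reversed. The kept values include those of genes called in no fit: Mettl14, and Gadd45a, Jun, Map1a and Ngfr in IP over input. All 93 losses fell on called genes, so the 284 overstates how stable the calls were. Depth limits the site values: most rest on 1 mutated read.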
